A study of Sus scrofa with 7 samples.

Results

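Complement and coagulation are cascades of proteases that work in blood and in the spaces between cells. Complement tags debris and microbes when C1q binds a target, or when C3 is cleaved through the alternative pathway, and it ends in a pore built from C5b, C6, C7, C8 and C9. Coagulation starts when tissue factor meets its plasma partner and ends in a fibrin clot, which plasmin later dissolves. Most of the circulating proteins come from the liver, but macrophages, fibroblasts and endothelial cells of the heart make many of them locally, and after an infarction these genes are known for their part in clearing dead tissue and keeping small vessels open.

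The 36 genes described here were chosen by name, 22 of complement and 14 of coagulation and fibrinolysis, out of 20654 genes in the deposited table. All 36 were in the table, and all 36 reached at least 10 normalized read counts in at least 3 libraries, as did 15661 genes in all. RNA was sequenced from the anteromidventricular heart muscle of male farm pigs, 14 weeks after a left circumflex (LCX) infarction. The 4 pigs labelled S100a1 had been given human S100A1, which encodes a calcium sensor of cardiac muscle, in AAV5, an adeno-associated virus serotype. The 3 pigs labelled hrLuc had been given the reporter enzyme luciferase in AAV5. Infarction and AAV5 were thus common to both groups, no pig without infarct or without vector is among the 7, and the labels give neither the promoter of the vector nor the age of the pigs.

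The libraries held 29002007 to 38409552 reads in S100a1 and 28679326 to 32967159 reads in hrLuc, with 1 transcript row counted per gene. Markers of cardiomyocytes were abundant in every library, as the tissue label asks. The pig S100A1 gene had 5950, 6804, 6548 and 4429 normalized read counts in S100a1, against 7461, 6568 and 9125 in hrLuc, with overlap (log2 fold change -0.39 ± 0.16, adjusted p = 0.577, limma). No source used here says whether transgene reads count toward it, so it cannot serve as a check of the labels, on which each direction below rests. Fold changes are S100a1 over hrLuc on the scale log2(value + 0.5), with their standard errors. A gene counted as called at an adjusted p under 0.05 over all 15661 genes in limma.

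None of the 36 genes was called, where 0.0128% of all tested genes were called in limma. CLU, F2R and C5AR1, all lower in S100a1, were the 3 with an unadjusted p under 0.05, beside 8.26% of all tested genes, of which 4.57% were lower and 3.69% higher. The share of the 36 was near that of the background. TFPI, on the higher side, and PLAUR, on the lower side, were the 2 whose groups were apart, against 9.27% of all tested genes. Count-based fits on whole reads recovered from the values called 0 of the 36 as well. The share of all genes called was 0.0128% in edgeR, 0.568% in DESeq2 and 0 in limma-voom. Each of these tools had 3 of the 36 at an unadjusted p under 0.05, beside 8.51% of all genes in edgeR, 8.66% in DESeq2 and 8.16% in limma-voom. None of the 36 passed an adjusted p of 0.05 in the authors' deposited table, against 0.728% of the tested genes that carry a p there, and the lowest value there, that of CLU, was 0.128.

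By their median, the 36 genes spread more between hearts of the same group than all tested genes did. The median standard deviation of the 36 between libraries of the same group was 0.264 on the log2 scale, against 0.162 over all tested genes. This spread also depends on how abundant a gene is. CD46, PROS1, PLAT, PLAUR, TFPI and F8 spread less than the median gene. In hrLuc replicate 1 there were 13 of the 36 genes at their highest level of the 7 libraries, where 18.4% of all tested genes were highest. In S100a1 replicate 1 there were 17 of the 36 at their lowest level, where 24.1% of all tested genes were lowest. S100a1 replicate 2 held the highest value of 11 of the 36 genes and the lowest of 0, where 14.9% of all tested genes were highest and 12.4% lowest.

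**Figure D1:**
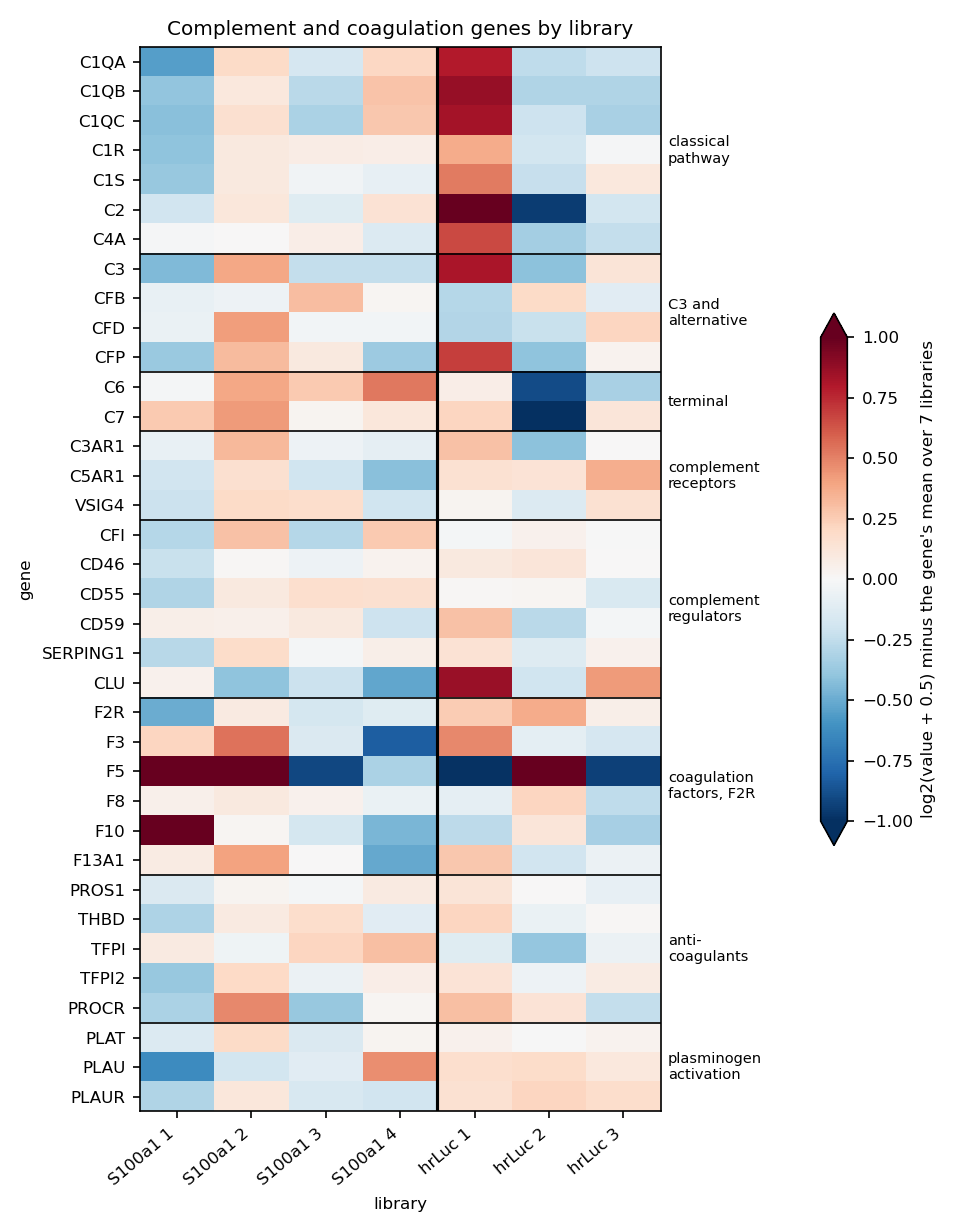
Level of each of the 36 genes (rows, grouped by role) in the 4 S100a1 and 3 hrLuc libraries (columns), as log2(value + 0.5) minus the mean of the gene over the 7 libraries; red is above and blue below that mean, and values beyond 1 are shown at the end of the scale. The column of hrLuc replicate 1 is red through C1q, C2, C4A, C3, properdin and CLU, the column of S100a1 replicate 1 is mostly blue, and F5 splits the libraries regardless of the group.

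The recognition molecule and proteases of the classical pathway did not differ between the groups beyond their spread. C1q is built from chains encoded by C1QA, C1QB and C1QC, which are made mainly by macrophages and lie side by side on chromosome 6 (Sscrofa11.1, 80586259 to 80606076). C1QA had 451, 754, 587 and 761 normalized read counts in S100a1 replicates 1 to 4, against 1145, 553 and 573 in hrLuc replicates 1 to 3. C1QB had 614, 868, 667 and 981 in S100a1, against 1475, 654 and 652 in hrLuc. C1QC had 770, 1153, 829 and 1245 in S100a1, against 1840, 894 and 825 in hrLuc. In all 3 chains hrLuc replicate 1 was the highest library, at 1.87 to 1.99 times the mean of the other 6, while the other hrLuc libraries lay inside the S100a1 range.

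The ratios between the chains varied less from heart to heart than the chains did. Over the 7 libraries the C1QC count divided by the C1QB count ran from 1.24 to 1.37, C1QB divided by C1QA from 1.14 to 1.36 and C1QC divided by C1QA from 1.41 to 1.71. The chains themselves spanned 2.39-fold to 2.54-fold. The log2 fold changes were -0.19 ± 0.28 for C1QA, -0.16 ± 0.29 for C1QB and -0.18 ± 0.28 for C1QC (adjusted p = 0.859 to 0.894, limma). Without hrLuc replicate 1 the signs turned, to 0.15, 0.23 and 0.19. The 10 macrophage markers had a summed count of 4995 to 7896 in S100a1 and 5366 to 7117 in hrLuc, with the highest library in S100a1 replicate 2 and hrLuc replicate 1 next, and 3 of the 9 that could be tested were lower. In hrLuc replicate 1 there were 8 of the 10 above the mean of the other 6 libraries and 2, CD163 and FOLR2, below it, with a median of 1.21 times that mean. CD163, a scavenger receptor, was at 0.964 times, CSF1R, a growth factor receptor, at 1.32 times, and MARCO, which averaged under 10 counts, at 6.45 times. Their part in the C1q values was not tested. In bulk tissue fewer cells of a type and less RNA per cell cannot be told apart.

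C1R and C1S, the proteases that C1q activates, are made by fibroblasts among others and are neighbours on chromosome 5 (63644097 to 63681466). C1S had 1641, 2287, 2079 and 2017 counts in S100a1, against 3049, 1820 and 2293 in hrLuc, or -0.23 ± 0.17 on the log2 scale (adjusted p = 0.722, limma). The groups overlapped, and hrLuc replicate 1 and S100a1 replicate 1 were the extremes. C1R ran from 1486 to 2098 in S100a1 and from 1733 to 2538 in hrLuc (-0.10 ± 0.16). The C1S count divided by the C1R count was 0.982 to 1.20 over the 7 libraries, and the log2 ratio differed by -0.13 between the groups (exact two-sided permutation p = 0.171, n = 4 and 3). C1R shares ancestry with its neighbour C1RL, so some reads could fall to either.

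C2, CFB and C4A stand together on chromosome 7 (24020590 to 24083060). C2 and C4A had their highest value in the same heart and their lowest in the same heart, and CFB did not share these. C2, the protease of the classical C3 convertase, had 87.4, 108, 91.4 and 110 counts in S100a1, against 228, 51.3 and 87.5 in hrLuc. Its highest and lowest values were both in hrLuc, 4.44-fold apart, and the log2 fold change was -0.03 with a 95% interval from -0.99 to 0.92. C4A, which supplies the other part of that convertase, ran from 287 to 331 in S100a1 and from 249 to 500 in hrLuc (-0.05 ± 0.22). CFB, the counterpart of C2 in the alternative pathway, ran from 32.8 to 42.8 in S100a1 and from 28.2 to 39.6 in hrLuc (0.12 ± 0.23). hrLuc replicate 1 held the highest C2 and C4A and the lowest CFB, and hrLuc replicate 2 held the lowest C2 and C4A and the second highest CFB. Within S100a1 the order was not shared, as replicate 4 held the highest C2 and the lowest C4A of that group. The C2 count divided by the CFB count was 2.13 to 3.23 in the 4 S100a1 libraries, against 8.07, 1.30 and 2.75 in hrLuc replicates 1 to 3.

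C3, the protein on which all complement pathways meet, had the same outlying heart. C3 (chromosome 2, 72431470 to 72471622) had 1828, 3255, 2105 and 2103 counts in S100a1, against 4385, 1872 and 2727 in hrLuc. The groups overlapped, and hrLuc replicate 1 was at 1.89 times the mean of the other 6 libraries. Its log2 fold change was -0.31 ± 0.28 (adjusted p = 0.761, limma), and it was 0.00 without hrLuc replicate 1. CFP, properdin, which stabilizes the alternative convertase, ran from 50.2 to 81.1 in S100a1 and from 49.2 to 105 in hrLuc (-0.19 ± 0.29). CFD, factor D, a protease that fat tissue secretes as adipsin, ran from 871 to 1219 in S100a1 and from 743 to 1055 in hrLuc (0.17 ± 0.16). The 7 adipocyte markers had a summed count of 10075 to 13655 in S100a1 and 8729 to 11842 in hrLuc, and 5 of the 6 tested were higher. Their part in CFD was not tested beyond its relation with ADIPOQ, given below. CFD overlaps MED16, so the counts can hold reads of both.

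The terminal components had the 2 most positive fold changes among the complement genes, and 1 heart of the hrLuc group set much of their size. C7, which anchors the growing pore in the membrane and is abundant in fibroblasts of the heart, had 1494, 1672, 1269 and 1350 counts in S100a1, against 1448, 557 and 1355 in hrLuc. Apart from hrLuc replicate 2, which was far below all others, the hrLuc values lay inside the S100a1 range. S100a1 over hrLuc gave 0.48 ± 0.30 on the log2 scale (adjusted p = 0.658, limma) and only 0.04 without hrLuc replicate 2. C6, the partner that binds before it, had 14.2, 18.9, 17.3 and 20.9 counts in S100a1, against 15.1, 7.48 and 11.4 in hrLuc. Again hrLuc replicate 2 was lowest, and hrLuc replicate 1 overlapped the S100a1 range. Its log2 fold change was 0.67 ± 0.34 (adjusted p = 0.624, limma), or 0.42 without hrLuc replicate 2, and 0.50 with 5 in place of 0.5 added to the counts. The genes lie near each other on chromosome 16, C7 from 25846860 to 25902707 and C6 from 26023646 to 26089518.

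Among the complement receptors, C5AR1 was lower in 3 of the 4 S100a1 libraries than in any hrLuc library. C5AR1 encodes the receptor for C5a, the strongest chemoattractant that complement releases, and it is carried by myeloid cells. It had 169, 216, 168 and 144 counts in S100a1, against 215, 212 and 249 in hrLuc. S100a1 replicate 2 overlapped the hrLuc range, and the other S100a1 libraries lay below it. The log2 fold change was -0.38 ± 0.15 (unadjusted p = 0.0361, adjusted p = 0.574, limma), with an exact two-sided permutation p of 0.114, where the smallest p this design can give is 0.0286. C3AR1, the receptor for C3a, ran from 405 to 541 in S100a1 and from 325 to 528 in hrLuc (0.07 ± 0.17). VSIG4, a receptor of resident macrophages that takes up C3b-coated particles, had 533, 706, 698 and 538 counts in S100a1, against 629, 560 and 686 in hrLuc. Its groups covered much the same range, and the 95% interval of its log2 fold change was -0.32 to 0.28. Neutrophil markers were low, with a summed count of 109 to 127 in S100a1 and 110 to 134 in hrLuc, and 4 of the 7 averaged under 10 counts.

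Of the complement regulators, CLU had the lowest log2 fold change of all 36 genes. CLU encodes clusterin, a secreted chaperone that keeps the terminal complex out of membranes and is induced in stressed heart muscle. It had 9515, 6981, 7952 and 6424 counts in S100a1, against 16839, 8049 and 12429 in hrLuc. All S100a1 libraries except replicate 1 lay below the hrLuc libraries, and S100a1 replicate 1 was above hrLuc replicate 2. The log2 fold change was -0.64 ± 0.23, a level 0.641 times that of hrLuc (unadjusted p = 0.0217, adjusted p = 0.557, limma; exact two-sided permutation p = 0.114). Without hrLuc replicate 1 it was -0.39, and without hrLuc replicate 2 it was -0.92. CLU lies on chromosome 14 from 11336585 to 11352569 and overlaps no other annotated gene. In the authors' deposited table its log2 fold change was -0.69.

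The other complement regulators had log2 fold changes from -0.13 to 0.07. CD46, a cofactor for cleavage of C3b, ran from 1842 to 2206 in S100a1 and from 2157 to 2339 in hrLuc (-0.13 ± 0.08). CD55, which speeds the decay of convertases, ran from 309 to 428 in S100a1 and from 342 to 385 in hrLuc (0.07 ± 0.13). CD59, which blocks the pore itself, ran from 1817 to 2248 in S100a1 and from 1737 to 2568 in hrLuc (0.00 ± 0.13). SERPING1, the inhibitor of C1r and C1s, ran from 1539 to 2126 in S100a1 and from 1706 to 2064 in hrLuc (-0.03 ± 0.12). CFI, factor I, which cuts C3b and C4b, ran from 206 to 309 in S100a1 and from 248 to 260 in hrLuc (-0.01 ± 0.17). The 95% intervals of these log2 fold changes lay between -0.40 and 0.38.

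**Figure D2:**
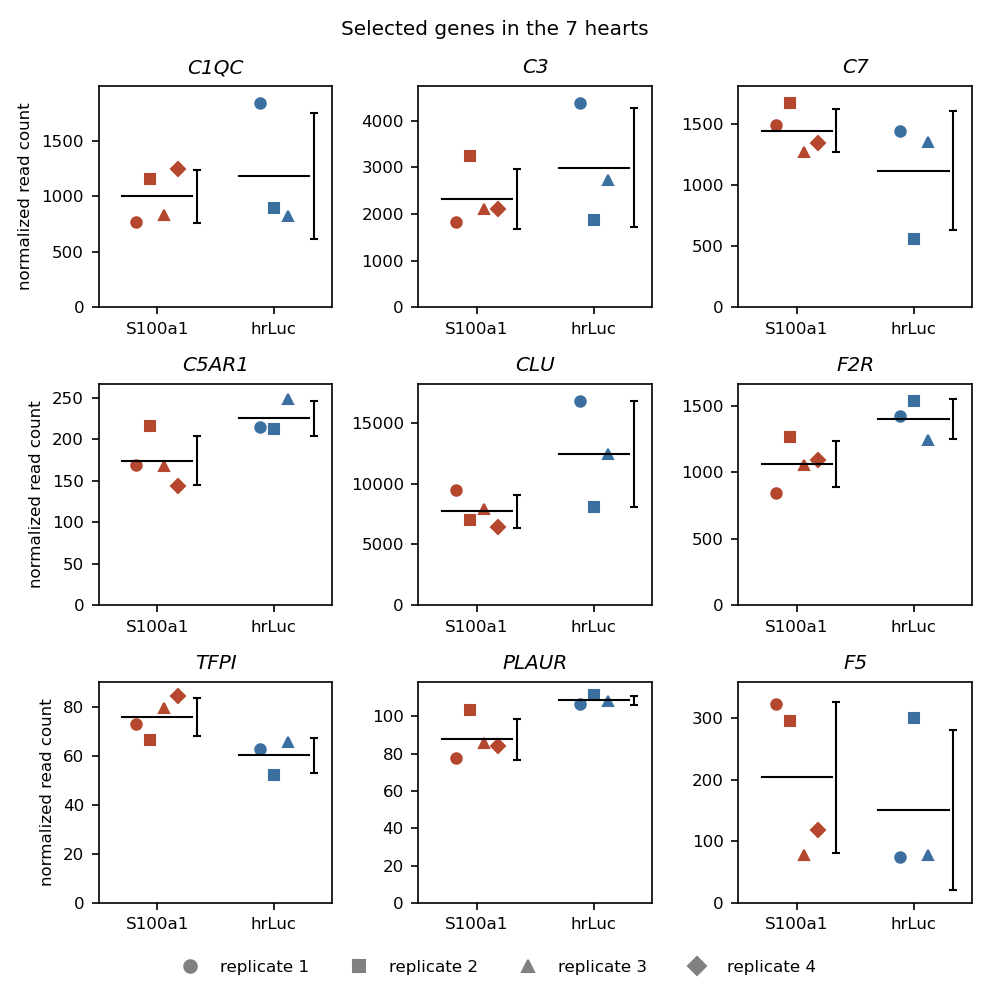
Normalized read count (vertical axes, from 0) of 9 genes in S100a1 (red, 4 libraries) and hrLuc (blue, 3 libraries); marker shapes give the replicate, horizontal lines the group mean and bars 1 SD. CLU and C1QC show hrLuc replicate 1 far above the rest, C7 shows hrLuc replicate 2 far below, and TFPI and PLAUR are the genes without overlap.

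In coagulation and fibrinolysis 10 of the 14 genes were negative. Only 1, the thrombin receptor gene F2R, had an unadjusted p under 0.05 (limma), beside 8.26% of all tested genes. F2R encodes PAR1, through which thrombin acts on endothelial cells, fibroblasts and, in humans, platelets, and lies on chromosome 2 from 85642794 to 85659133. It had 844, 1268, 1054 and 1094 counts in S100a1, against 1422, 1542 and 1242 in hrLuc. S100a1 replicate 2 was just above hrLuc replicate 3, and the other S100a1 libraries were below all of hrLuc. The log2 fold change was -0.41 ± 0.14, the smallest p of the 36 genes (unadjusted p = 0.0156, adjusted p = 0.541, limma; exact two-sided permutation p = 0.0857). It kept its sign with each library left out, between -0.49 and -0.30. The 8 fibroblast markers were all lower, with a median log2 fold change of -0.13, 0 called, and a summed count of 45158 to 68848 in S100a1 and 65743 to 84956 in hrLuc. Of the 8 endothelial markers 6 were lower, with a summed count of 27165 to 29984 in S100a1 and 27624 to 32404 in hrLuc. Their part in the F2R values was not tested.

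The clotting factors themselves did not separate the groups. F3, tissue factor, which starts coagulation, had 465, 585, 363 and 227 counts in S100a1, against 562, 374 and 357 in hrLuc. The S100a1 libraries held both the highest and the lowest value (-0.12 ± 0.30, adjusted p = 0.920, limma). F8, factor VIII, which endothelial cells make, had 3027, 3120, 3010 and 2790 counts in S100a1, against 2742, 3391 and 2447 in hrLuc, and its log2 fold change of 0.07 had a 95% interval from -0.17 to 0.32. F8 overlaps F8A1, TFPI2 overlaps GNGT1, F13A1 overlaps MIR9841, and F5, CD46 and CD59 each overlap a locus without a gene name, so their counts can hold reads of both. F13A1, the chain of factor XIII that crosslinks fibrin and is found in macrophages, ran from 665 to 1257 in S100a1 and from 831 to 1144 in hrLuc (-0.01 ± 0.20).

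F5 and F10 varied widely between hearts. F5, factor V, had 322, 296, 78.2 and 119 counts in S100a1, against 74.3, 300.4 and 77.3 in hrLuc. Thus 3 hearts, from both groups, were at 296 to 322 and the other 4 at 74.3 to 119, a pattern singled out after the values were seen. Its 95% interval, from -0.88 to 1.92 on the log2 scale, was the widest of the 36. F10, factor X, had 78.6, 37.8, 32.9 and 27.1 counts in S100a1, against 31.1, 40.6 and 29.5 in hrLuc. S100a1 replicate 1 was at 2.37 times the mean of the other libraries, and without it the log2 fold change of 0.27 turned to -0.05. Markers of megakaryocytes and platelets, which carry factor V, had a summed count of 258 to 290 in S100a1 and 258 to 279 in hrLuc.

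Of the anticoagulants, TFPI was higher in every S100a1 library than in any hrLuc library. TFPI encodes tissue factor pathway inhibitor, made by endothelium, and lies on chromosome 15 from 92345083 to 92409962, where it overlaps LOC106506297. It had 73.2, 66.7, 79.9 and 84.7 counts in S100a1, against 63.0, 52.4 and 65.9 in hrLuc. The groups did not overlap, but S100a1 replicate 2 and hrLuc replicate 3 were less than 1 count apart. The log2 fold change was 0.33 ± 0.17 (adjusted p = 0.636, limma; exact two-sided permutation p = 0.0571), and it ran from 0.23 to 0.40 with each library left out. Groups that did not overlap on the higher side made up 3.96% of all tested genes. The next distinct transcript row of TFPI gave 0.49 ± 0.28, with overlap between the groups.

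The other anticoagulants did not differ beyond their spread. PROS1, protein S, the cofactor of activated protein C, had 1850, 2078, 2011 and 2169 counts in S100a1, against 2226, 2044 and 1926 in hrLuc. The groups lay over each other, and its 95% interval was -0.21 to 0.15. THBD, thrombomodulin, which turns thrombin toward protein C, ran from 475 to 664 in S100a1 and from 561 to 682 in hrLuc (-0.09 ± 0.13). PROCR, the receptor of protein C on endothelium, ran from 73.3 to 133 in S100a1 and from 80.7 to 118 in hrLuc (-0.11 ± 0.24). TFPI2, a matrix-bound inhibitor of plasmin and other proteases, ran from 472 to 705 in S100a1 and from 591 to 672 in hrLuc (-0.10 ± 0.13).

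In plasminogen activation, PLAUR was lower in every S100a1 library than in any hrLuc library. PLAUR encodes the receptor that holds urokinase at the cell surface, and lies on chromosome 6 from 50489773 to 50505453, where it overlaps LOC106507601. It had 77.5, 103, 85.7 and 83.8 counts in S100a1, against 106, 111 and 108 in hrLuc. The hrLuc libraries were close together, and S100a1 replicate 2 came within 3 counts of them. The log2 fold change was -0.32 ± 0.15 (adjusted p = 0.615, limma; exact two-sided permutation p = 0.0571), and it ran from -0.40 to -0.26 with each library left out. Groups that did not overlap on the lower side made up 5.31% of all tested genes. PLAU, urokinase, had 134, 183, 193 and 287 counts in S100a1, against 233, 236 and 224 in hrLuc, so that S100a1 spanned a wide range around a narrow hrLuc group (-0.27 ± 0.22). It overlaps CAMK2G. PLAT, tissue plasminogen activator, had 634, 798, 631 and 710.5 counts in S100a1, against 719, 695 and 716 in hrLuc (-0.04 ± 0.10).

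**Figure D3:**
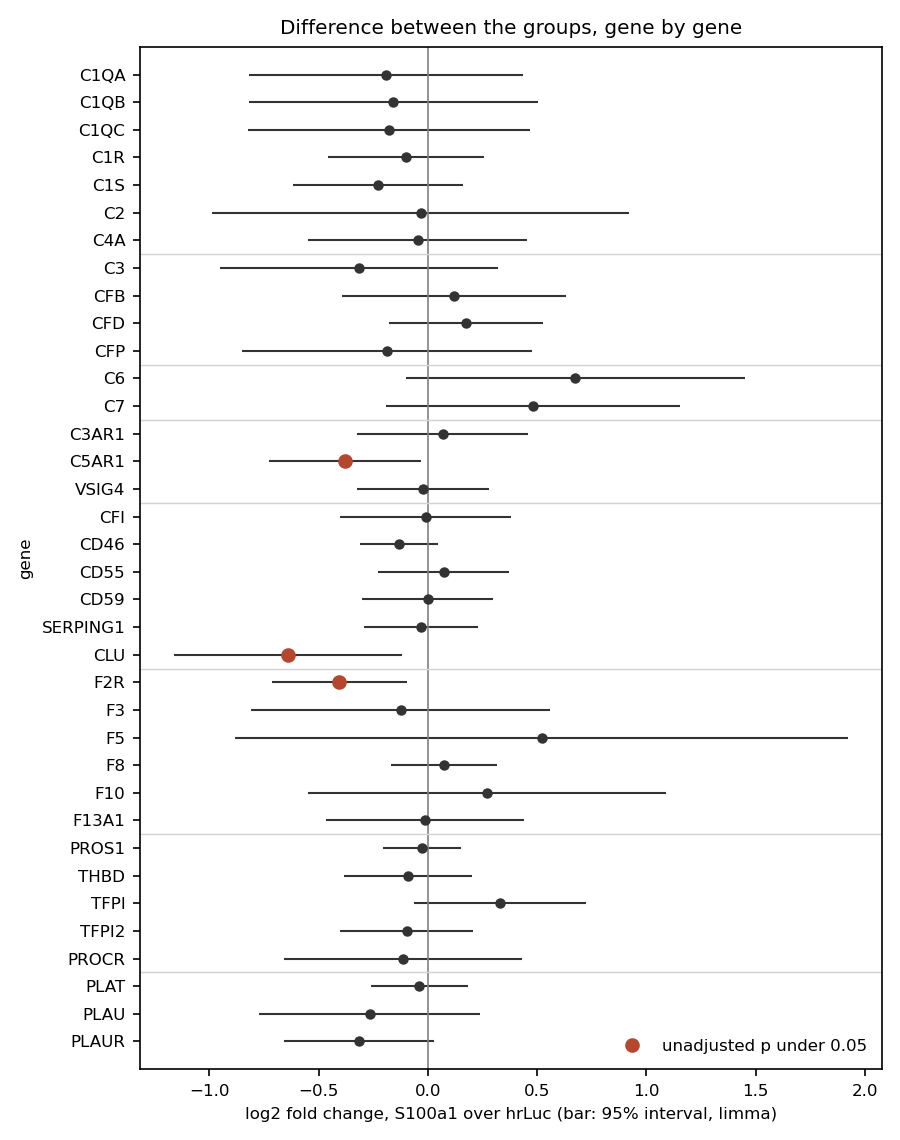
Log2 fold change of S100a1 over hrLuc for the 36 genes, by role from the classical pathway at the top to plasminogen activation at the bottom, with its 95% interval from limma (4 and 3 libraries); red points had an unadjusted p under 0.05. The intervals of 33 genes cross 0, and those of C5AR1, CLU and F2R, the red points, do not.

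Across the 36 genes 26 had a negative log2 fold change, beside 56.5% of all tested genes, and the median was -0.04, beside -0.02 over all genes. By role, all 7 genes of the classical pathway, 2 of 4 of C3 and the alternative pathway, 0 of 2 terminal components, 2 of 3 receptors, 5 of 6 regulators, 3 of 6 coagulation factors with F2R, 4 of 5 anticoagulants and 3 of 3 genes of plasminogen activation were negative. This count depended on 1 heart and on the scaling. Without hrLuc replicate 1 there were 12 negative values and a median of 0.05, and in the classical pathway C1S remained negative, at -0.04. With each library centred on its median there were 17 negative values, and with quantile normalization 21. The scaling moved all tested genes too. Their median log2 fold change was 0.023 with median centring and -0.003 with quantile normalization. Without hrLuc replicate 1 it was -0.021. In every fit run that held them, with each library left out and under each scaling, 15 of the 36 genes kept their sign. CLU, F2R, C5AR1, PLAUR, PLAU, C1S, CD46 and THBD were always negative. TFPI, C6, C7, CFB, CFD, CD55 and F5 were always positive, so a kept sign also went with small or uncertain differences.

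**Figure D4:**
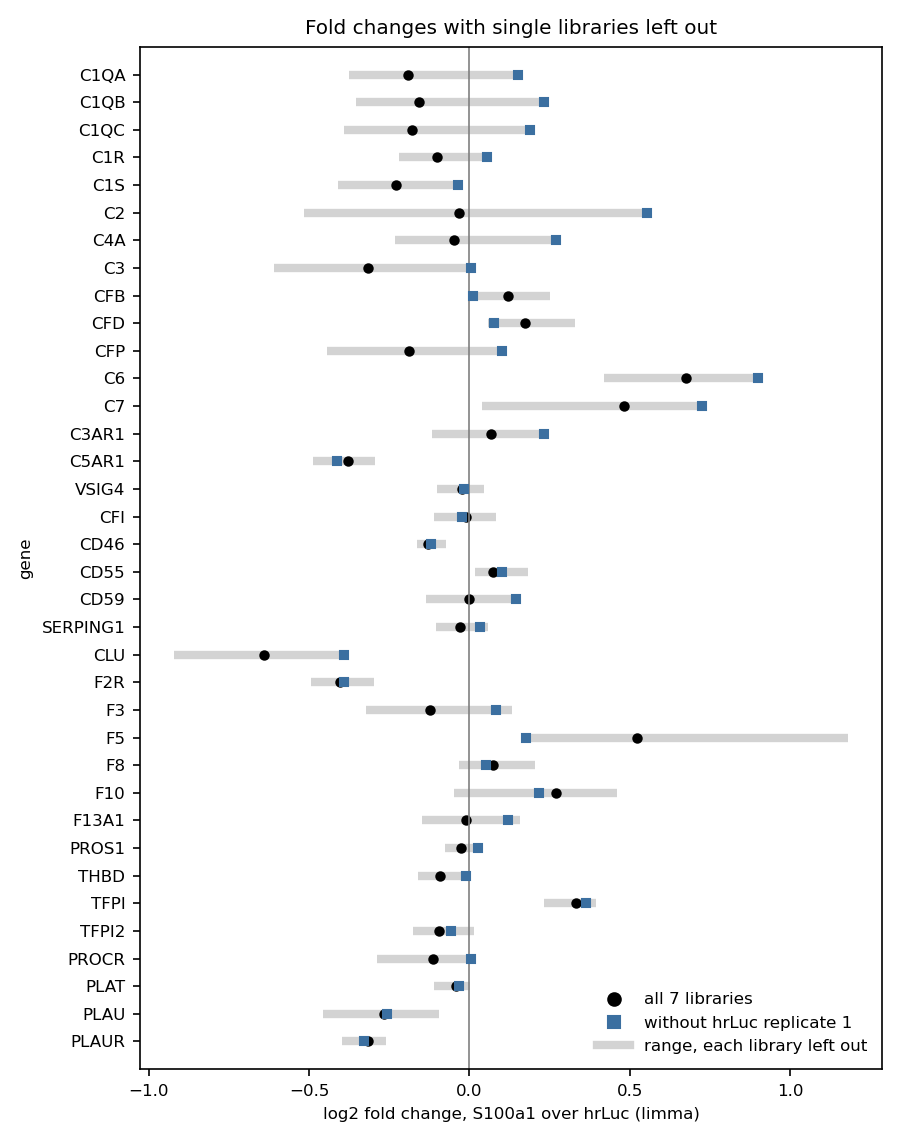
Log2 fold change of S100a1 over hrLuc for the 36 genes with all 7 libraries (black), without hrLuc replicate 1 (blue squares) and as the range over the fits with each library left out (grey bars). The squares of C1QA, C1QB, C1QC, C2 and C4A lie on the other side of 0 from the black points, and those of F2R, C5AR1, TFPI and PLAUR lie beside them.

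Ratios of an activator to its inhibitor or partner, which do not depend on how a library was scaled, did not separate the groups in any of the 5 pairs examined. The log2 ratio of F3 to TFPI, its inhibitor, was 2.34 ± 0.73 in S100a1 and 2.80 ± 0.36 in hrLuc (SD, n = 4 and 3, exact two-sided permutation p = 0.400). That of C3 to CFI was 3.17 ± 0.27 in S100a1 and 3.47 ± 0.65 in hrLuc (SD, n = 4 and 3, exact p = 0.429). That of PLAU to PLAUR was 1.14 ± 0.46 in S100a1 and 1.09 ± 0.04 in hrLuc (SD, n = 4 and 3, exact p = 0.886). Adjusted over the 5 ratios the lowest p was 0.536 (exact permutation test, Benjamini-Hochberg). These ratios compare hearts, not genes, because counts are not divided by transcript length.

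The 7 relations examined, each of a member with a gene of a likely source cell, did not pass the threshold over the 7 libraries. C1QA and CD163 had Pearson's r = 0.39 (exact permutation p = 0.352) and Spearman's rho = 0.79 (exact permutation p = 0.0480), which was 0.336 after adjustment over the 7 relations. Without the 2 libraries farthest from the median of CD163 r was 0.80. C1S and PDGFRA, a receptor of fibroblasts, had r = 0.63 (exact permutation p = 0.143, adjusted 0.619) and rho = 0.36 (exact permutation p = 0.444). Without the 2 farthest libraries r was -0.66, so that value rested on hrLuc replicate 1 and S100a1 replicate 1. CFD and ADIPOQ, the gene of an adipocyte hormone, had r = 0.34 (exact permutation p = 0.462) and rho = 0.04 (exact permutation p = 0.963). For the relations of C7 with PDGFRA, THBD with PECAM1, and F13A1 and VSIG4 with CD163, r ran from -0.24 to 0.51, with an exact permutation p of 0.249 to 0.868 and rho from -0.50 to 0.46.

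Of 69 other genes of the pathways, 66 were in the table and 46 were abundant enough to test. None was called, and 4 were lower and 1 higher at an unadjusted p under 0.05 (limma). These made up 10.9% of the 46, beside 8.26% of all tested genes. Negative values were found in 28 of the 46, or 60.9%, beside 56.5% of all tested genes. Those with both groups fully apart were 8.70% of the 46, beside 9.27% of all tested genes. CD93, a neighbour of THBD on chromosome 17 whose product is an endothelial and myeloid receptor once linked to C1q, had the smallest p. It had 1214, 1245, 1281 and 1447 counts in S100a1, against 1700, 1690 and 1454 in hrLuc, without overlap (-0.32 ± 0.09, adjusted p = 0.515, limma). THBD, next to it, was at -0.09. MASP1, a protease of the lectin pathway, had 2596, 2478, 3786 and 2294 counts in S100a1, against 4894, 3091 and 4540 in hrLuc (-0.58 ± 0.20). CALR, calreticulin, a chaperone that binds C1q, was at -0.33 ± 0.11, and COLEC11, a collectin, at -0.49 ± 0.19 without overlap. PLG, plasminogen, was the higher one, from 4.94 to 16.7 counts in S100a1 and from 2.14 to 4.54 in hrLuc. These counts were too few for its fold change to be read closely. PLG was abundant enough to test only through S100a1 libraries. Its entry into the test thus rested on the group in which it was higher. F2RL2, another protease-activated receptor, close to F2R on chromosome 2 and overlapping IQGAP2, was at -0.31 ± 0.15.

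Several genes whose products reach the heart in plasma were barely present. The fibrinogen genes FGA and FGG, the protein C gene PROC, the complement pore genes C8A and C8B and the factor IX gene F9 averaged under 3 counts in each group. FGB, the remaining fibrinogen gene, averaged 9.95 counts in S100a1 and 15.6 in hrLuc, C9, of the pore, 41.2 in S100a1 and 32.7 in hrLuc, and C8G 64.4 in S100a1 and 64.2 in hrLuc. TTR, a liver marker, was at 0 in all 7 libraries. The summed count of the 7 liver markers was 399 to 509 in S100a1 and 389 to 519 in hrLuc, most of it APOA1. Some lists of other cells differed more than the members did. Markers of mast cells had a summed count of 904 to 1393 in S100a1 and 1630 to 2529 in hrLuc, a difference carried by KIT, while FCER1A, CPA3 and HDC were higher in S100a1, and the median log2 fold change of the 5 was 1.07. Markers of mesothelium had 312 to 450 in S100a1 and 529 to 1068 in hrLuc, set by WT1 and KRT8. Markers of B and plasma cells had 111 to 155 in S100a1 and 149 to 441 in hrLuc, and those of T and natural killer cells 323 to 399 in S100a1 and 323 to 670 in hrLuc, both with the highest library in hrLuc replicate 1. The part of these cells in the levels of C1q, C2, C3 and C4A in that heart was not tested.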

How the data were processed

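The authors deposited 1 table of 63562 transcript rows. As deposited, each library column holds a signal, whole reads scaled by a size factor of the library, since all came out as multiples of 1 read within 0.01. The deposited log2 column, the deposited fold ratio and the deposited adjusted p-value are the authors' comparison and were only copied. Per the submitters' processing notes, DESeq2 1.33.1, FastQC 0.11.8 and R 4.1.2 were used with Sscrofa11.1. The aligner, the counter and the handling of strand were not given in the sources used here.

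For each gene the transcript row of highest mean was kept. All rows matched a RefSeq gene of Sscrofa11.1, the source of positions and overlaps. Genes at 10 or more in at least 3 libraries entered limma 3.58.1 (R 4.3.3; mean-variance trend, log2(value + 0.5), no covariates, two-sided, Benjamini-Hochberg, threshold 0.05), the branch fixed for normalized values. The fits were tested on simulated counts. edgeR 4.0.16, DESeq2 1.42.0 and limma-voom used the recovered whole reads. Libraries of a group differed far beyond sampling noise, so none was a repeated sequencing of another library. This check cannot tell preparations of the same heart from different hearts. The titles describe separate pigs.

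Members and lists were chosen with earlier results of these data known. Described in full are the members without group overlap or with an unadjusted p under 0.05, and the most abundant of each role. Other pathway genes named by rule are the 3 of smallest p, CD93, PLG and CALR. MASP1, COLEC11, F2RL2, CSF1R, the liver-made factors and the further members given per library were named after their values were seen. Of the marker lists, smooth muscle and pericytes (summed count 12666 to 16708 in S100a1, 13763 to 19912 in hrLuc), Schwann cells (676 to 867 in S100a1, 493 to 813 in hrLuc) and cardiomyocytes (1787577 to 1983418 in S100a1, 1691112 to 1941020 in hrLuc) overlapped between groups. Of the 5 ratios examined, 1 is not reported here.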

Additional observations from a re-analysis of the deposited data

Results flagged for a closer look

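In 4 of the 36 genes 1 S100a1 library lay far from the other 3 by Dixon's criterion for its gap to the nearest, a test in which chance marks about 1 in 20 groups. C1R was low in S100a1 replicate 1, at 1486 normalized read counts against 2055 to 2098 in the other 3. CFD was high in S100a1 replicate 2, at 1219 against 871 to 894. C3AR1 was high in the same library, at 541 against 405 to 417. CD59 was low in S100a1 replicate 4, at 1817 against 2175 to 2248. None of the 5 ratios met this criterion, and groups of 3 such as hrLuc were not examined.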

How the results depend on the processing

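All calls among the 36 genes, 0 of 36, held in the 19 alternatives tried and at a threshold of 0.10, and the lowest adjusted p in any of them was 0.178, for CLU in DESeq2. Of 659 fold changes recomputed, 594 kept their direction and 65, of 21 genes, did not. Not all of these were separate checks. A fit that changed only the variance prior could not move a fold change. The replicate block, given below, repeated the fold changes found without S100a1 replicate 4. Leaving out each library in turn gave log2 fold changes of -0.38 to 0.15 for C1QA, -0.35 to 0.23 for C1QB, -0.39 to 0.19 for C1QC, -0.22 to 0.055 for C1R, -0.52 to 0.55 for C2, -0.23 to 0.27 for C4A, -0.61 to 0.0040 for C3, -0.44 to 0.10 for CFP, -0.12 to 0.23 for C3AR1, -0.10 to 0.046 for VSIG4, -0.11 to 0.084 for CFI, -0.14 to 0.14 for CD59, -0.10 to 0.058 for SERPING1, -0.32 to 0.13 for F3, -0.031 to 0.20 for F8, -0.048 to 0.46 for F10, -0.15 to 0.16 for F13A1, -0.076 to 0.028 for PROS1, -0.18 to 0.016 for TFPI2, -0.29 to 0.0051 for PROCR and -0.11 to 0.0029 for PLAT. It also gave 1 to 5 genes at an unadjusted p under 0.05, 2 to 7 without overlap and 12 to 27 with a negative value. The log2 ratio of PLAU to PLAUR differed by -0.16 to 0.17 and that of C3 to CFI by -0.62 to 0.028. The lowest counts without a library were 1 gene at an unadjusted p under 0.05 without hrLuc replicate 3 and 12 negative values without hrLuc replicate 1. The highest were 5 at an unadjusted p under 0.05 and 7 without overlap, both without hrLuc replicate 2. Smaller groups come apart more readily, so counts without overlap after leaving out a library cannot be set beside that of all 7 libraries. Over all tested genes those at an unadjusted p under 0.05 (limma) moved as well. They ran from 769 of 15588 without hrLuc replicate 1 to 1635 of 15592 without hrLuc replicate 2. Without hrLuc replicate 3 they were 1220 of 15581. For the counts without overlap or with a negative value in the alternatives, no share over all genes is given.

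Median centring gave 17 negative values, where the median log2 fold change of all tested genes rose to 0.023. It turned C2 to 0.016, C4A to 0.00025, VSIG4 to 0.024, CFI to 0.036, CD59 to 0.047, SERPING1 to 0.016, F13A1 to 0.035, PROS1 to 0.020 and PLAT to 0.0067. Quantile normalization gave 1 gene without overlap, and turned C2 to 0.013, VSIG4 to 0.013, CFI to 0.039, CD59 to 0.0088 and F13A1 to 0.016. On recovered reads VSIG4 was 0.0065 in edgeR, 0.0050 in DESeq2 and 0.0010 in limma-voom. CFI was 0.037 in edgeR, 0.035 in DESeq2 and 0.0080 in limma-voom, CD59 was 0.0087 in edgeR, 0.0069 in DESeq2 and 0.020 in limma-voom, and F13A1 was 0.030 in edgeR and 0.029 in DESeq2. The next distinct transcript row gave 1 gene without overlap and 0.019 for CD59. The cause was not tested.

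A fit with the replicate number as a block, which leaves S100a1 replicate 4 without a partner, gave 0 calls. Its fold changes were those of the fit without S100a1 replicate 4, so only its p-values were new. The block fit gave 3 genes at an unadjusted p under 0.05 (limma), beside 1011 of all 15661 tested genes. There were 22 negative values and a median of -0.06, and VSIG4 was 0.040, CD59 0.069, F3 0.13 and F13A1 0.16. Same-numbered libraries had correlations of deviations of -0.02, -0.07 and 0.08, and the other pairs ran from -0.16 to 0.19. So few pairs cannot show whether the numbers pair the pigs, and the labels state no pairing.

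Without the 2 farthest libraries r was -0.25 for CFD and ADIPOQ, 0.80 for C1QA and CD163, -0.66 for C1S and PDGFRA, 0.52 for THBD and PECAM1 and -0.17 for F13A1 and CD163, and r centred on group means was -0.042 for C7 and PDGFRA. The median within-group SD of 0.264 on the log2 scale over 7 hearts limits the precision, and a p that missed the threshold does not show that a gene was level. Reads of overlapping genes cannot be told apart without strand.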
